A study of Mus musculus with 4 samples.

Results

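The 10 genes described here, Ptgs1, Ptgs2, Ptges, Ptgis, Ptgds, Hpgds, Ptger2, Ptger3, Ptger4 and Ptgfr, encode enzymes that make prostaglandins and receptors that bind them. They were chosen by name from the 30406 genes shared by all 4 single-cell libraries of the study. The libraries held vessels of the mouse lower limb, the popliteal lymphatic vessels that drain the ankle joint and the adjacent superficial saphenous vein, digested together. All mice were on a C57BL/6J background, and every library was made from the pooled vessels of 3 mice, so that a library and not a mouse was the replicate. The tdT1 and tdT2 libraries held sorted tdTomato+ cells of male and female Cspg4-Cre;Ai9-tdTomato mice over 8 months old, in which Cre driven by the Cspg4 (NG2) promoter switches on a red reporter, chiefly in mural cells. The WT and TNF-Tg libraries held cells of male mice, 9 months old by the labels, that had no reporter and were sorted for high forward or side scatter. TNF-Tg mice carry a human TNF transgene and develop inflammatory-erosive arthritis, and the WT mice do not carry it. The human transgene itself was not counted against the mouse genome.

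Prostaglandins are made from arachidonic acid in steps. The cyclooxygenases Ptgs1 (COX-1) and Ptgs2 (COX-2) form the common intermediate prostaglandin H2, and a terminal synthase then sets the product: Ptges makes prostaglandin E2, Ptgis makes prostacyclin, and Ptgds and Hpgds make prostaglandin D2. Prostaglandin E2 signals through several receptors, of which Ptger2 and Ptger4 raise cyclic AMP and Ptger3 lowers it, and Ptgfr is the receptor for prostaglandin F2 alpha. Prostaglandin E2 and prostacyclin are known to relax vessel muscle, to slow the pumping of collecting lymphatics and to act on macrophages.

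In GRCm38, the build of the files, Ptgs2 lies at chr1:150100031-150108227, Hpgds at chr6:65117293-65144908 and Ptgs1 at chr2:36230426-36252272. The stretches before the start sites that a promoter table gives for these genes are shown. The genes are the inducible cyclooxygenase and the pair of enzymes with a higher level in myeloid than in stromal cells in every library. For Ptgs1 this difference was small in TNF-Tg and was not called in the test given below, and its highest level lay in endothelial cells. The stretches come from the RefSeq promoter table of GRCm38.p6, which held 9 of the 10 genes and not Ptgis. Capitals mark the motifs, and positions are counted from the start given in that table, with no position 0. The Ptgs2 stretch is chr1:150099921-150100060 on the plus strand, from position -110 to 30, the Hpgds stretch is chr6:65144731-65144840 on the minus strand, and the Ptgs1 stretch is chr2:36230316-36230425 on the plus strand, both from -110 to -1. For Hpgds the start in the promoter table lies inside the gene span given above, which runs to 65144908. The Hpgds stretch thus lies within that span, and its positions are not counted from the end of the span.
Ptgs2: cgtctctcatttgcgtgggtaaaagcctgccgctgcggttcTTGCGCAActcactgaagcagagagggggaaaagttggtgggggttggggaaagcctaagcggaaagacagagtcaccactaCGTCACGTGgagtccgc
Hpgds: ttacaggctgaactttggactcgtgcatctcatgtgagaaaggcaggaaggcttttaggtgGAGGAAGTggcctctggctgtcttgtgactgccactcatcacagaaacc
Ptgs1: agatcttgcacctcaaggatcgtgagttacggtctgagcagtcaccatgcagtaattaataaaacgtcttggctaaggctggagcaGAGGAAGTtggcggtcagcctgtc
Both strands of the whole 300-base entries, 250 bases before and 50 after the start, were searched. The Ptgs2 entry held TTGCGCAA, a palindrome of the kind bound by C/EBP factors, at -69 to -62, a match found in 0.183% of the 32851 promoters in the table. It also held CACGTG, an E-box, at 17 to 22 (7.15% of promoters) and, overlapping it on the minus strand, TGACG, the core of a cyclic AMP response element (20.8% of promoters). GAGGAAGT, a site of the kind bound by the myeloid factor PU.1, stood in the entries of Hpgds at -49 to -42 and of Ptgs1 at -24 to -17, in those of no other of the 9 genes, and in 3.20% of all promoters. Of the other motifs searched, GGGCGG stood in the entries of 5 of the 9 genes (35.7% of promoters). The NF-kB consensus stood in that of Ptgds only (4.51%), and TATAAA in none of them (13.6%). These matches are letters in a window and no measure of binding.

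The libraries held 1504 (tdT1), 454 (tdT2), 5488 (WT) and 3391 (TNF-Tg) cells, with totals of 2357031 to 68773605 UMIs (unique molecular identifiers, each standing for 1 captured transcript) and medians of 4932.5 to 12660 UMIs per cell. Clusters were found without the 10 genes and without the other genes of the pathway among the clustering features, and were named from markers, so that every cell type named here means cells like that type. Stromal cells numbered 1024, 241, 2158 and 1114 in tdT1, tdT2, WT and TNF-Tg, and myeloid cells 155, 140, 2551 and 1823. A level is given as CPM, the UMIs of a gene per 1000000 UMIs when all cells of a class in a library are pooled, and since the transcripts are counted at their 3′ end, levels are compared between classes and not between genes. The 2 main stromal clusters correspond by their markers to the cells that the study called lymphatic muscle cells (here Pi16 stromal) and vascular smooth muscle cells (here Gdf10 stromal). These markers were chosen by the study on the same samples. Acta2, Myh11, Tagln, Cnn1, Des, Myocd and Rgs5, markers of contractile muscle and pericytes, summed to only 8.28 to 33.6 CPM in the stromal cells. Pdgfra, Dcn, Lum, Col1a1, Col1a2 and Col3a1 summed to 25436 to 41017 CPM, and the cells are called stromal. In Pi16 stromal cells most of the muscle sum was Des, at 40.3, 9.59, 36.7 and 28.8 CPM in tdT1, tdT2, WT and TNF-Tg. In Gdf10 stromal cells Des stood at 5.24, 4.09, 1.13 and 2.64 CPM. The genes by which the study defined its muscle cells were present, with Cald1 at 214.9 to 295.9, Tpm1 at 50.5 to 83.8 and Pdgfrb at 46.1 to 139.2 CPM in the stromal cells against at most 1.96, 32.5 and 1.63 CPM in the myeloid cells. A smaller stromal cluster, led by Col5a3, Col4a1 and Col15a1, stayed unnamed and is called the third stromal cluster. Leukocyte markers summed to 0.753 to 59.6 CPM in the stromal cells and to 6321 to 9894 CPM in the myeloid cells. Only 11 cell barcodes occurred in more than 1 library. The plot of the 9 measurable genes by cell type and library shows the values on which the comparisons rest.

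**Figure D1:**
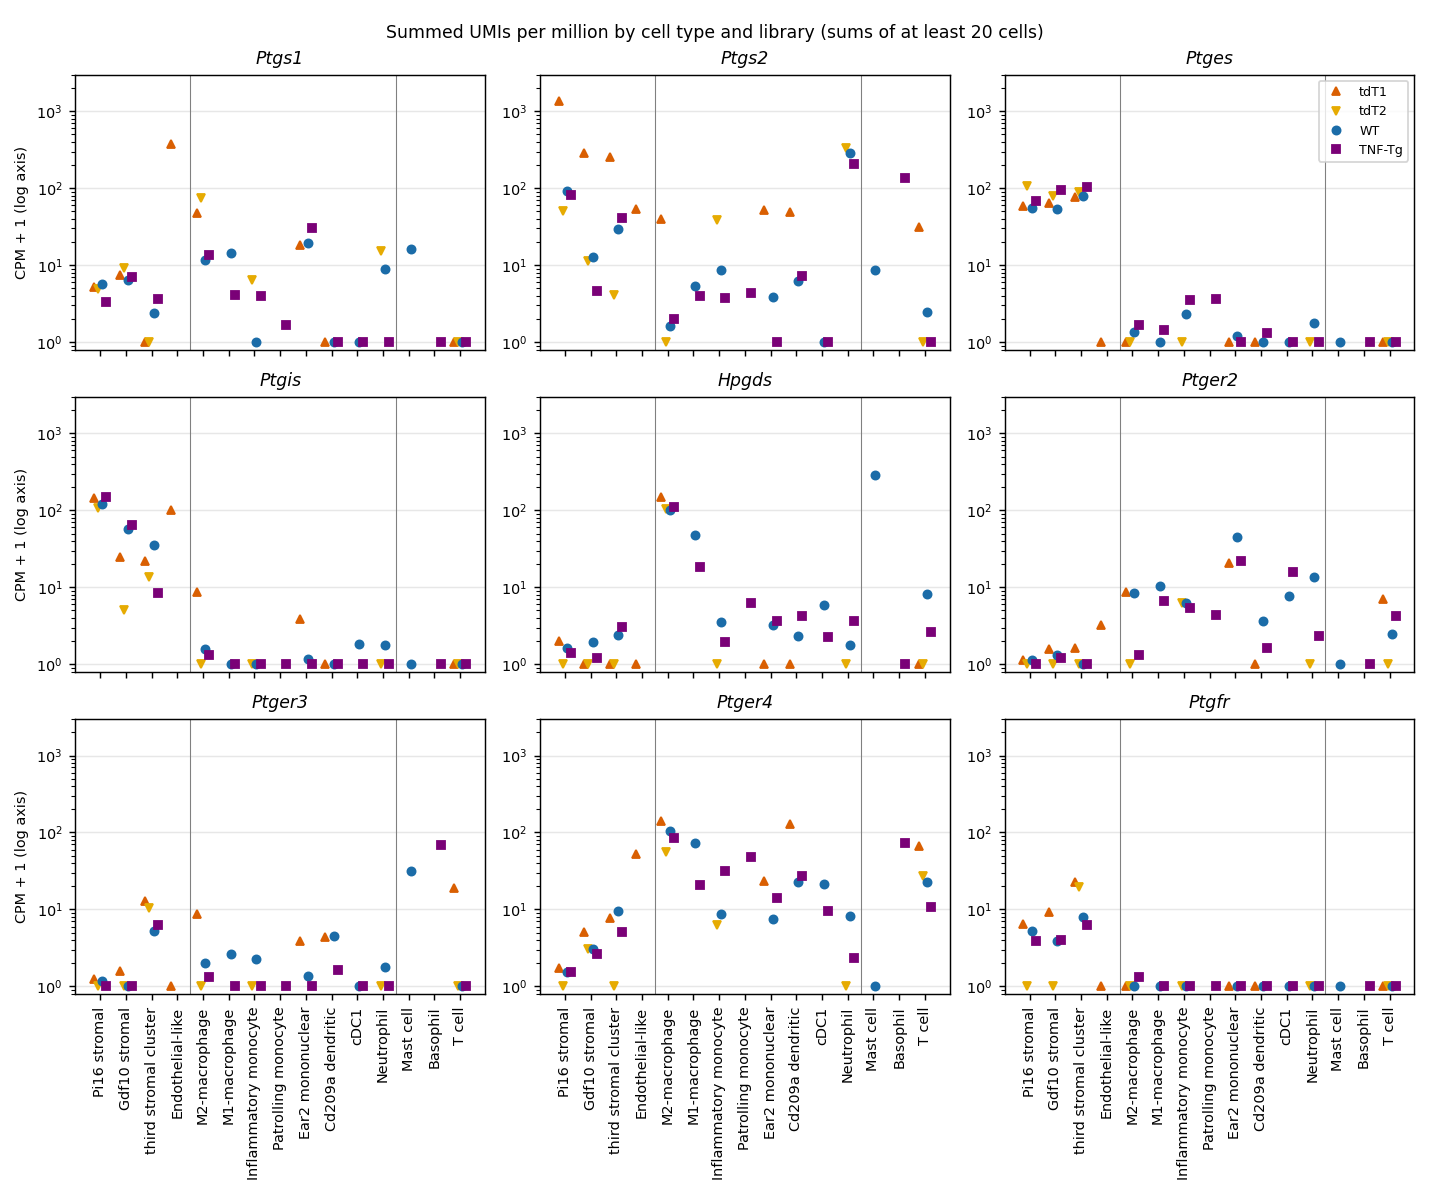
Level of each gene (CPM + 1, log axis) in every cell type with at least 20 cells, 1 point per library; points at 1 have no UMI, and vertical lines separate stromal and endothelial, myeloid, and other types. Ptges, Ptgis and Ptgfr stand high on the left of their panels, and Hpgds, Ptger2 and Ptger4 in the middle. The highest Hpgds point is that of the WT mast cells, on the right. Ptgs2 stands high in both Pi16 stromal cells and neutrophils.

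The first question was which cells carried the synthesis genes and which carried the receptors. The stromal cells carried Ptges and Ptgis, and the myeloid cells Hpgds, Ptger2 and Ptger4, in every library, while Ptgs2 was found in both. Endothelial cells, measurable in tdT1 (33 cells), belonged to neither class and held Ptgis at 101.6 CPM (95% counting interval 74.1 to 135.9) and Ptger4 at 51.9 CPM (32.9 to 77.9). Stromal and myeloid sums of the 4 libraries were compared with edgeR's quasi-likelihood test with the library as a block and Benjamini-Hochberg adjustment over the 12533 genes tested, at the study's threshold of 0.01. Of the 9 members tested, 7 were called, 4 higher and 3 lower in stromal cells, beside 44.2% of all genes called (24.2% higher and 20.1% lower). The median log2 difference was -0.27 over the 9 members and 0.09 over all genes. A share of all genes this large means that a call alone sets a gene apart little, and the sizes of the differences carry the description.

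Ptgis, the prostacyclin synthase, stood at 108.3, 46.7, 102.6 and 103.3 CPM in the stromal cells of tdT1, tdT2, WT and TNF-Tg. In the myeloid cells it stood at 1.63, 0, 0.354 and 0.0505 CPM, from 14 UMIs in all, so that the groups did not overlap. The log2 difference was 8.57 (SE 0.46, adjusted p = 1.35e-06 by edgeR).

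Ptges, the inducible prostaglandin E synthase, gave 60.9, 91.1, 56.1 and 80.4 CPM in stromal cells. The myeloid cells gave 0, 0, 0.258 and 1.16 CPM, from 31 UMIs. The difference was 6.92 on the log2 scale (SE 0.37, adjusted p = 1.31e-06 by edgeR), and tdT2, the library with the lowest stromal Ptgis, had the highest stromal Ptges. Of all Ptges UMIs of a library, 96.3% to 100% came from the stromal class. After thinning of each cell to 3000 UMIs, 13.9% of the stromal and 0.166% of the myeloid WT cells held a Ptges UMI, at median depths of 14900.5 and 12372 UMIs per cell before thinning. In TNF-Tg the shares were 20.5% and 0.298%, and 14 of the 23 myeloid Ptges UMIs of that library lay in inflammatory monocytes, which held 27.5% of its myeloid UMIs.

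Ptgfr, the prostaglandin F receptor, was the only receptor gene of the 10 that was called higher in stromal cells, at 8.13, 4.52, 4.14 and 3.21 CPM. A single Ptgfr UMI was found in all myeloid cells together, against 273 in stromal cells, a ratio of CPM of 249 with a 95% counting interval of 44.3 to 9866. The edgeR difference was 7.12 (SE 0.68, adjusted p = 3.84e-05). The highest Ptgfr levels lay in the third stromal cluster, at 21.7, 18.8, 7.01 and 5.37 CPM, against 5.42, 0, 4.20 and 2.88 CPM in Pi16 stromal cells.

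Ptgs2 stood at 1030, 24.1, 70.5 and 48.1 CPM in the stromal cells and at 158.5, 43.1, 14.1 and 10.7 CPM in the myeloid cells. It was thus higher in stromal cells in 3 of the 4 libraries and lower in tdT2. The log2 difference of 1.91 (SE 0.48) had an adjusted p of 0.00921 by edgeR, the weakest of the 7 calls, and the call was lost without tdT1 (0.026), without WT (0.0234) or without TNF-Tg (0.0394), and without the library block (0.126), and held without both tdT libraries (1.66e-04, an alternative chosen after the data were seen). The myeloid level came largely from neutrophils, which held 82.2% of the myeloid Ptgs2 UMIs in WT and 73.6% in TNF-Tg with 4.04% and 3.79% of all myeloid UMIs. With neutrophils left out, also chosen after the data were seen, the difference was 4.24 (SE 0.44, adjusted p = 6.61e-05 by edgeR).

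Neutrophils reached 328, 287 and 208 CPM of Ptgs2 in tdT2, WT and TNF-Tg, above the Pi16 stromal cells of the same libraries, at 49.9, 90.1 and 79.9 CPM. M2-like macrophages had 9 Ptgs2 UMIs in WT (0.637 CPM), 3 in TNF-Tg (0.978 CPM), none in tdT2 and 5 in the 46 cells of tdT1 (38.4 CPM, 95% counting interval 12.5 to 89.6). Basophils, measurable only in TNF-Tg (61 cells), held 134.5 CPM (95% counting interval 92.0 to 189.9). Cyclooxygenase-2 message was thus highest in Pi16 stromal cells and granulocytes and stood at 0.637 to 4.31 CPM in the macrophage clusters of WT and TNF-Tg.

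Hpgds, the hematopoietic prostaglandin D synthase, was lower in stromal cells, at 0.699, 0, 0.764 and 0.511 CPM, than in myeloid cells, at 38.2, 31.6, 55.4 and 22.4 CPM (log2 -5.90, SE 0.29, adjusted p = 8.89e-07 by edgeR). Among the myeloid types the level lay in macrophages. M2-like macrophages, the cells led by Cd209f, Lyve1 and Pf4, gave 146.0, 103.7, 99.95 and 109.2 CPM in the 4 libraries, and the M1-like cluster gave 46.8 (WT) and 17.1 CPM (TNF-Tg), while inflammatory monocytes gave 2.60 and 0.920 CPM. Mast cells of the WT library held 284.4 CPM (103 cells, 37 UMIs, 95% counting interval 200.3 to 392.0). Ptgds, the other prostaglandin D synthase, had 3 UMIs in the stromal cells, none in the myeloid cells and 6 in an unnamed cluster of tdT1, and did not pass the filter on low counts, so no comparison of it was made.

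Ptger4 and Ptger2, receptors for prostaglandin E2, were lower in stromal cells. Ptger4 stood at 2.10, 0.753, 1.37 and 1.31 CPM in stromal and at 65.8, 17.2, 65.4 and 34.5 CPM in myeloid cells (log2 -5.08, SE 0.25, adjusted p = 8.54e-07 by edgeR). Its level spread over most mononuclear types, with 138.3, 54.9, 104.2 and 83.8 CPM in M2-like macrophages and 127.4, 21.6 and 26.1 CPM in the Cd209a dendritic cells of tdT1 (23 cells), WT and TNF-Tg. Ptger2 stood at 0.262, 0, 0.159 and 0.0730 CPM in stromal and at 9.75, 8.62, 14.0 and 4.04 CPM in myeloid cells (log2 -5.92, SE 0.44, adjusted p = 7.99e-06 by edgeR). Ptger2 was highest in the Ear2 mononuclear cells, led by Lyz1, Ear2 and Retnla, at 19.9, 44.6 and 21.2 CPM in tdT1, WT and TNF-Tg. For both receptors the lowest myeloid library stood above the highest stromal one.

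The 2 members that were not called were Ptgs1 and Ptger3. Ptgs1 gave 3.93, 4.52, 4.62 and 3.72 CPM in stromal cells and 30.1, 28.7, 10.98 and 4.14 CPM in myeloid cells (log2 -1.53, SE 0.45, adjusted p = 0.0199 by edgeR), and it was called under DESeq2 (0.00793), without the filter on low counts (0.00448) and without the TNF-Tg library (0.00298). Its highest level lay in neither class. The 33 endothelial cells of tdT1 held 370.2 CPM (95% counting interval 315.7 to 431.4), and their 164 UMIs were 65.1% of all Ptgs1 UMIs of that library. Ptger3 was low in both classes, at most 2.26 CPM in stromal and 4.06 CPM in myeloid cells (log2 -0.27, SE 0.73, adjusted p = 0.786 by edgeR), and its direction turned under DESeq2 (0.14), without the block (0.11) and without WT (0.48). It was found in basophils of TNF-Tg at 67.3 CPM (16 UMIs), in mast cells of WT at 30.8 CPM (4 UMIs) and in the third stromal cluster at 11.8, 9.41, 4.20 and 5.37 CPM in tdT1, tdT2, WT and TNF-Tg.

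**Figure D2:**
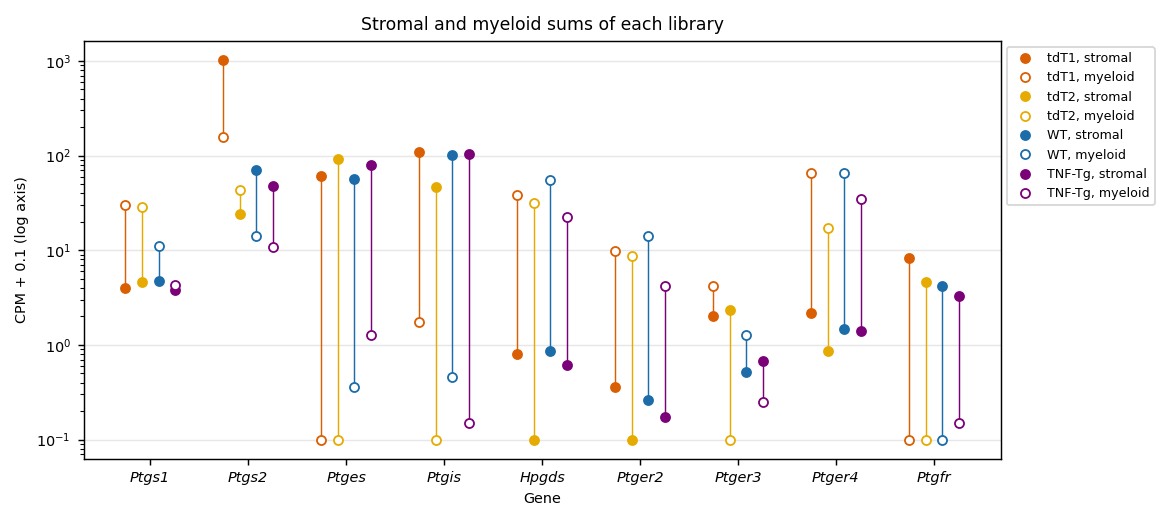
Level of each gene (CPM + 0.1, log axis) in the stromal (filled) and myeloid (open) cells of each library, joined by a line; 4 libraries. Filled points lie above open ones in all 4 libraries for Ptges, Ptgis and Ptgfr and below them for Ptgs1, Hpgds, Ptger2 and Ptger4, and Ptgs2 of tdT2 runs against the other libraries.

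Of the 36 other genes of arachidonate metabolism listed, 29 were tested and 16 called between stromal and myeloid cells, 7 higher and 9 lower in stromal cells. The share of genes called higher was thus like the 24.2% of all genes, and 20.1% of all genes were called lower. Those called higher included genes that act before and after the cyclooxygenase. Slco2a1, the prostaglandin transporter, gave 75.1, 35.4, 71.3 and 73.3 CPM in stromal cells and at most 1.44 CPM in myeloid cells (log2 8.05, SE 0.36, adjusted p = 5.78e-07 by edgeR). Mgll, which frees arachidonate from 2-arachidonoylglycerol, gave 83.8 to 94.1 CPM in stromal cells and differed by 6.15 (SE 0.38). The secreted phospholipase Pla2g2e differed by 5.83 (SE 0.41), and Ptgfrn, a membrane protein that binds the prostaglandin F receptor, by 4.44 (SE 0.22). The other 3 genes called higher were Pla2g4a, Cbr1 and Tbxa2r.

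Of the 10 leukotriene genes listed 7 were tested, and 5 were lower in stromal cells and none higher, beside 20.1% and 24.2% of all genes. The other 2, Lta4h (log2 0.08) and Cysltr2 (log2 -0.76), were not called. Cysltr1, a receptor for cysteinyl leukotrienes, differed by -8.70 (SE 0.30), Alox5ap, the partner protein of 5-lipoxygenase, by -8.21 (SE 0.59) and Alox5 itself by -6.88 (SE 0.43). Tbxas1, the thromboxane synthase, gave 95.9, 89.1, 89.8 and 30.1 CPM in myeloid cells and at most 0.669 CPM in stromal cells (log2 -7.49, SE 0.34, adjusted p = 5.78e-07 by edgeR). The prostacyclin receptor Ptgir was not called (log2 -0.97, SE 0.33, adjusted p = 0.0363), and the breakdown enzyme Hpgd, which inactivates prostaglandin E2, was lower in stromal cells (log2 -1.95, SE 0.25).

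The next question was whether the 2 main stromal clusters differed. Pi16 stromal cells held more Ptgs2 and more Ptgis than Gdf10 stromal cells of the same library, and Ptges was close to even. With the same edgeR fit, 2 of the 5 members tested were called, both higher in Pi16 stromal cells, beside 14.6% of the 11035 genes tested (7.22% higher and 7.34% lower). The median log2 difference was -0.07 over the 5 members and 0.03 over all genes. Ptgs2 stood at 1343, 49.9, 90.1 and 79.9 CPM in Pi16 and at 285.5, 10.2, 11.8 and 3.65 CPM in Gdf10 stromal cells, higher in Pi16 stromal cells in 4 of 4 libraries (log2 2.85, SE 0.26, adjusted p = 4.97e-06 by edgeR). Pi16 stromal cells held 92.4% of the stromal Ptgs2 UMIs of tdT1 and 93.9% of those of WT, with 70.9% and 73.5% of all stromal UMIs.

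Ptgis stood at 143.5, 107.4, 121.3 and 149.3 CPM in Pi16 and at 23.9, 4.09, 56.3 and 64.2 CPM in Gdf10 stromal cells (log2 1.59, SE 0.28, adjusted p = 0.00116 by edgeR). The groups did not overlap, though the gap was wider in the tdT libraries. Ptges gave 57.7, 105.5, 55.1 and 66.8 CPM in Pi16 and 62.3, 77.7, 52.5 and 93.4 CPM in Gdf10 stromal cells, a difference of -0.18 (SE 0.16, adjusted p = 0.441) whose direction turned without TNF-Tg. Ptgs1 differed by -0.74 (SE 0.30, adjusted p = 0.0876) and Ptgfr by -0.07 (SE 0.32, adjusted p = 0.910). With the library left out of the model neither Ptgs2 (0.525) nor Ptgis (0.132) was called, and under DESeq2 Ptgis was not (0.0185).

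Of the other pathway genes 22 were tested between these clusters and 7 called, 5 higher and 2 lower in Pi16 stromal cells, beside 7.22% and 7.34% of all genes. Akr1c18, a reductase that acts on prostaglandins and progesterone, stood at 36.97, 99.8, 3.90 and 4.80 CPM in Pi16 stromal cells (477 UMIs) and had no UMI in Gdf10 stromal cells. Against a floor of 3 UMIs over all Gdf10 stromal cells, it was at least 54.3-fold higher (adjusted p = 4.44e-06 by edgeR). Mgll (1.67, SE 0.13), Pla2g5 (1.55, SE 0.34), Pla2g4a (1.08, SE 0.15) and Slco2a1 (0.78, SE 0.19) were higher too, and Alox5ap (-1.62, SE 0.30) and Ptgir (-1.32, SE 0.32) were lower. The called phospholipases and the transporter thus went the same way as Ptgs2 and Ptgis.

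The tdT1 library stood apart in Ptgs2. Its Pi16 stromal cells stood at 1343 CPM against 90.1 CPM or less in the other libraries, which all differed from it in nozzle and sequencer, and WT and TNF-Tg also in genotype and sort gate. Ptgs2 is an immediate-early gene, and a list of 15 genes known to respond to tissue dissociation, among them Fos, Jun, Egr1 and Atf3, was read beside it. The list summed to 23406 CPM in the stromal cells of tdT1, against 7380, 4823 and 4132 CPM in tdT2, WT and TNF-Tg, and 14 of its 15 genes were highest in tdT1. In the myeloid cells the sums were 28164, 13707, 9226 and 5852 CPM, in the same order of libraries as Ptgs2. In the stromal cells the order was not the same, since tdT2 had the second highest list sum and the lowest Ptgs2. Within tdT1, Gdf10 stromal cells had a higher list sum (26512 CPM) than Pi16 stromal cells (21367 CPM) and a lower Ptgs2. Granulocytes, high in Ptgs2, also had high list sums. Neutrophils reached 20354, 16361 and 13530 CPM in tdT2, WT and TNF-Tg, and basophils of TNF-Tg 22674 CPM. M2-like macrophages, low in Ptgs2, had list sums of 40349, 16535, 9277 and 7298 CPM in tdT1, tdT2, WT and TNF-Tg. Cells with over 10% mitochondrial UMIs numbered 516 of 1504 in tdT1. The other libraries had 1 of 454 (tdT2), 252 of 5488 (WT) and 65 of 3391 (TNF-Tg). The parts of dissociation and of cell quality in the Ptgs2 levels were not tested. Ptgis and Ptges of tdT1 lay within the range of the other libraries in Pi16 stromal cells.

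**Figure D3:**
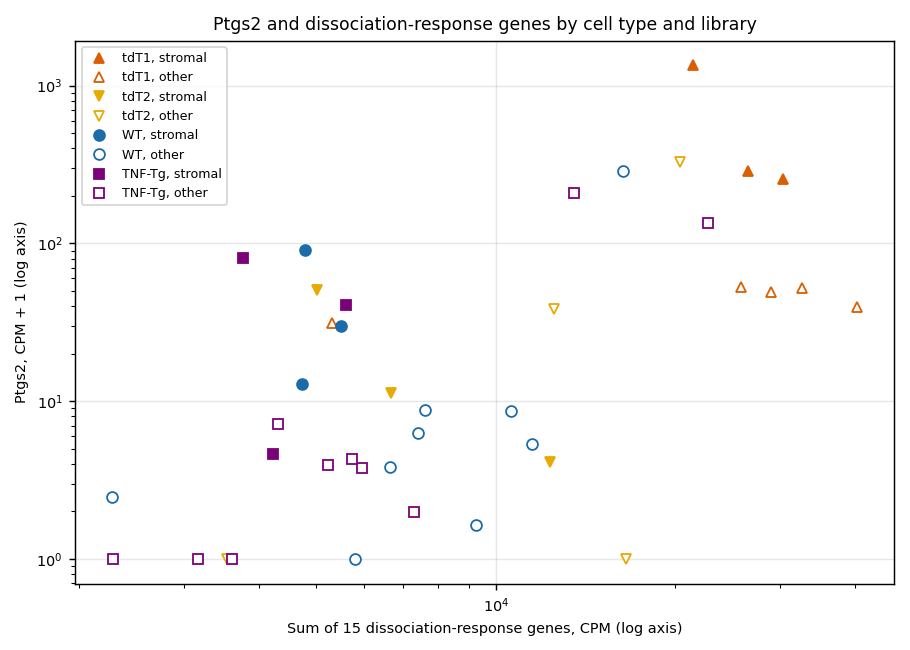
Ptgs2 (CPM + 1, log axis) against the summed CPM of 15 dissociation-response genes (log axis), 1 point per cell type and library with at least 20 cells; filled points are stromal clusters. The filled tdT1 points lie at the upper right, and the Pi16 stromal points of WT and TNF-Tg lie at 90.1 and 79.9 CPM of Ptgs2 with list sums of 4787 and 3771 CPM.

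Within stromal cells thinned to 3000 UMIs, the cells that held a Ptgs2 UMI were set beside those that held none. Ptgis was found in 30.5% of the Ptgs2-positive and 22.4% of the other WT cells, in 30.1% and 16.8% of those of tdT1 and in 23.5% and 19.3% of those of TNF-Tg. Ptges was found in 8.07% and 14.6% in WT, in 13.8% and 16.3% in tdT1 and in 14.7% and 20.9% in TNF-Tg. These shares come from cells of 1 library each, were not tested, and in tdT2 only 6 cells held a Ptgs2 UMI. Pi16 stromal cells, which held most Ptgs2 UMIs, also had the higher Ptgis level.

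As a description of likeness, each member's log2(CPM + 1) was correlated with that of all genes with enough UMIs over 44 sums of 1 cell type in 1 library, which share libraries and depth. Ptges was most like Ms4a4d (r = 0.99), Mrgprf and Pcdh1 (both r = 0.98). Ptgis was most like Sulf1 (r = 0.95), Hspa12b (r = 0.95) and Scara3 (r = 0.94). Hpgds was most like Ltc4s (r = 0.86), Cd209g and Ccl12 (both r = 0.85), and Ptger4 like Jak3 (r = 0.83). Ptgs2 was most like Pi16 (r = 0.78), a marker of the cluster that held it, followed by Fosl2 (r = 0.74) and Csf1 (r = 0.70). Among the others, the first gene was Bcam for Ptgs1 (r = 0.81), Sox9 for Ptgfr (r = 0.93) and Lyz1 for Ptger2 (r = 0.76).

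The last question was how the genes differed between TNF-Tg and WT. There was 1 library of each, so no test was possible, and each ratio of CPM is given with an exact 95% interval that covers counting error only and not the spread between mice. Genotype and library cannot be told apart. A member was counted as past 2-fold when it had at least 50 UMIs in the 2 libraries together.

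In stromal cells none of the 6 members with enough UMIs was past 2-fold, beside 10.1% of the 11567 genes compared. Ptges was higher in TNF-Tg, 80.4 against 56.1 CPM, a ratio of 1.43 (1.33 to 1.55). Ptgs2 was lower, 48.1 against 70.5 CPM, a ratio of 0.682 (0.625 to 0.745). Ptgis was level at a ratio of 1.007 (0.945 to 1.07), and the intervals of Ptgs1, Ptgfr and Ptger4 all held 1. The median log2 ratio was -0.19 over these 6 members and -0.10 over all genes of the class.

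Ptges was higher in TNF-Tg than in WT in all 3 stromal clusters, though tdT2, made from mice without the transgene, had more stromal Ptges (91.1 CPM) than TNF-Tg. Its ratio was 1.78 (1.54 to 2.06) in Gdf10 stromal cells, 1.21 (1.09 to 1.35) in Pi16 stromal cells and 1.34 (1.07 to 1.68) in the third stromal cluster. The clusters themselves differed between the libraries: the 11 Pi16 stromal markers summed to 13247 CPM in TNF-Tg against 19233 CPM, with 0 of 11 higher, and the 11 Gdf10 stromal markers to 8913 against 14726 CPM, with 1 of 11 higher. Without integration, 609 stromal cells of TNF-Tg formed a cluster with 0 WT cells. The part of these differences in the stromal ratios was not tested. The share of thinned stromal cells with a Ptges UMI was 13.9% in WT and 20.5% in TNF-Tg. The lower Ptgs2 did not run through all of them: the ratio was 0.310 (0.174 to 0.525) in Gdf10 stromal cells, from 73 and 18 UMIs, 0.887 (0.807 to 0.972) in Pi16 stromal cells and 1.37 (0.941 to 1.99) in the third cluster. Pi16 stromal cells, which held most of the Ptgs2, gave 73.5% of the stromal UMIs in WT and 53.2% in TNF-Tg. With the clusters of TNF-Tg weighted as in WT, chosen after the data were seen, the log2 difference of Ptgs2 went from -0.55 to -0.18 and that of Ptges from 0.52 to 0.41. Of the 15 dissociation genes 3 were higher in the TNF-Tg stromal cells, with a median log2 ratio of -0.30, and their part in the Ptgs2 ratio was not tested.

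Ptgis went in opposite directions within the stroma. It was higher in TNF-Tg in Pi16 stromal cells, 149.3 against 121.3 CPM (ratio 1.23, 1.15 to 1.32), and lower in the third stromal cluster, 7.38 against 34.6 CPM from 11 and 74 UMIs (ratio 0.214, 0.102 to 0.405). Ptgs1 was past 2-fold in Pi16 stromal cells, at 2.33 against 4.72 CPM from 17 and 109 UMIs (ratio 0.494, 0.278 to 0.828). The shares of all genes past 2-fold were 7.97% in Pi16, 14.5% in Gdf10 and 9.76% in the third stromal cluster.

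In the myeloid class as a whole, 3 of the 5 members with enough UMIs were past 2-fold, all lower in TNF-Tg, beside 17.5% of all genes past 2-fold (11.8% lower and 5.70% higher). Ptger2 fell to a ratio of 0.288 (0.224 to 0.367), Ptgs1 to 0.377 (0.293 to 0.481) and Hpgds to 0.405 (0.364 to 0.450) of the WT level. Ptger4 stood at 34.5 against 65.4 CPM (0.526, 0.482 to 0.574) and Ptgs2 at 10.7 against 14.1 CPM (0.759, 0.641 to 0.897). The median log2 ratio of the 5 was -1.30, beside -0.13 over all genes. Of the dissociation genes 3 of 15 were higher in the TNF-Tg myeloid cells, with a median log2 ratio of -0.76, and their part in these ratios was not tested.

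The makeup of the myeloid class also differed between the libraries. M2-like macrophages gave 45.5% of the myeloid UMIs in WT and 15.5% in TNF-Tg, and Ear2 mononuclear cells 17.1% and 1.91%, while inflammatory monocytes gave 2.48% and 27.5% and patrolling monocytes 0.172% and 7.59%. Weighting each type of TNF-Tg by its share of UMIs in WT left 1 of the 5 past 2-fold. The log2 difference of Hpgds went from -1.30 to -0.04, that of Ptger4 from -0.93 to -0.47, that of Ptgs1 from -1.41 to 0.06 and that of Ptger2 from -1.79 to -1.31. The mix was computed after the data were seen, and it rests on as few as 26 Ear2 cells in TNF-Tg. At a fixed mix the values of Hpgds and Ptgs1 were close to even, and those of Ptger2 were not. Single types were not all even: in the M1-like cluster both Hpgds and Ptgs1 were lower in TNF-Tg, as given below. In Ear2 cells Ptgs1 stood at 29.1 CPM in TNF-Tg against 18.2 CPM in WT, from 11 and 97 UMIs. The counting intervals of these levels overlapped, at 14.5 to 52.1 CPM in TNF-Tg and 14.8 to 22.2 CPM in WT. The part of the mix in the class ratios was not tested.

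Within M2-like macrophages Hpgds stood at 109.2 CPM in TNF-Tg against 99.95 CPM (ratio 1.09, 0.967 to 1.23), and Ptgs1 at 12.7 against 10.8 CPM (1.17, 0.804 to 1.68). Ptger4 was lower, 83.8 against 104.2 CPM (0.804, 0.702 to 0.919). Ptger2 was the exception, with 106 UMIs in WT and 1 in TNF-Tg (7.50 and 0.326 CPM, ratio 0.0435, 0.00109 to 0.248). The share of all genes past 2-fold in these cells was 8.82%. The M2-like markers summed to 24740 CPM in TNF-Tg against 22268 CPM, though only 4 of the 11 were higher in TNF-Tg. The M1-like markers summed to 12255 against 32161 CPM (3 of 11 higher) and the neutrophil markers to 1039 against 172 CPM (7 of 9 higher). Without integration, 125 TNF-Tg cells formed an M2-like cluster with 1 WT cell, and 115 joined the cluster of 1088 WT cells. The part of these shifts in the M2-like ratios was not tested.

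Within the M1-like cluster 3 of the 4 members with enough UMIs were past 2-fold, all lower in TNF-Tg, beside 19.2% of all genes past 2-fold (13.3% lower). Hpgds gave 17.1 against 46.8 CPM (0.366, 0.283 to 0.470), Ptger4 19.8 against 71.5 CPM (0.277, 0.220 to 0.347) and Ptgs1 3.13 against 13.4 CPM (0.233, 0.125 to 0.408). The cluster itself differed in its markers between the 2 libraries, and whether it held the same kind of cell in both was not tested. Its 11 M1-like markers summed to 6141 CPM in TNF-Tg against 37149 CPM, with 2 of 11 higher in TNF-Tg. None of the 11 M2-like markers was higher, with sums of 4367 against 9741 CPM, and all 9 inflammatory monocyte markers were higher, with sums of 1847 against 606 CPM. Without integration, the M1-like cluster held 528 WT and 15 TNF-Tg cells. Another inflammatory monocyte cluster, led by 5 markers of that type and 4 M1-like ones, held 31 WT and 320 TNF-Tg cells. The part of these shifts in the ratios was not tested.

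Ptger4 went the other way in inflammatory monocytes, at 30.7 CPM in TNF-Tg (167 UMIs, 498 cells) against 7.79 CPM in WT (6 UMIs, 69 cells), a ratio of 3.95 (1.77 to 10.9). The WT value rests on these 6 UMIs, and 9.61% of all genes were past 2-fold in these cells. The 9 inflammatory monocyte markers of these cells summed to 6008 CPM in TNF-Tg against 7844 CPM in WT, with 2 of 9 higher. Their M1-like markers summed to 1200 against 4299 CPM and their M2-like markers to 618 against 1073 CPM, each with 1 of 11 higher. Their 6 patrolling monocyte markers were all higher in TNF-Tg, with sums of 485 against 141 CPM. The part of these shifts in the Ptger4 ratio was not tested. In neutrophils Ptgs2 stood at 208.1 against 286.9 CPM (0.725, 0.597 to 0.878), with 12.9% of all genes past 2-fold, and in Ear2 mononuclear cells Ptger2 at 21.2 against 44.6 CPM (0.475, 0.203 to 0.951), from 8 and 237 UMIs, with 12.1% of all genes past 2-fold. The Ear2 cluster held 26 TNF-Tg and 292 WT cells. Its 7 Ear2 mononuclear markers summed to 19469 CPM in TNF-Tg against 25881.5 CPM in WT, with 1 of 7 higher. Its inflammatory monocyte markers summed to 1082 against 327 CPM, with 8 of 9 higher. The part of this shift in the Ear2 ratios was not tested. Basophils, mast cells and patrolling monocytes each had under 20 cells in 1 of the 2 libraries and gave no ratio.

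**Figure D4:**
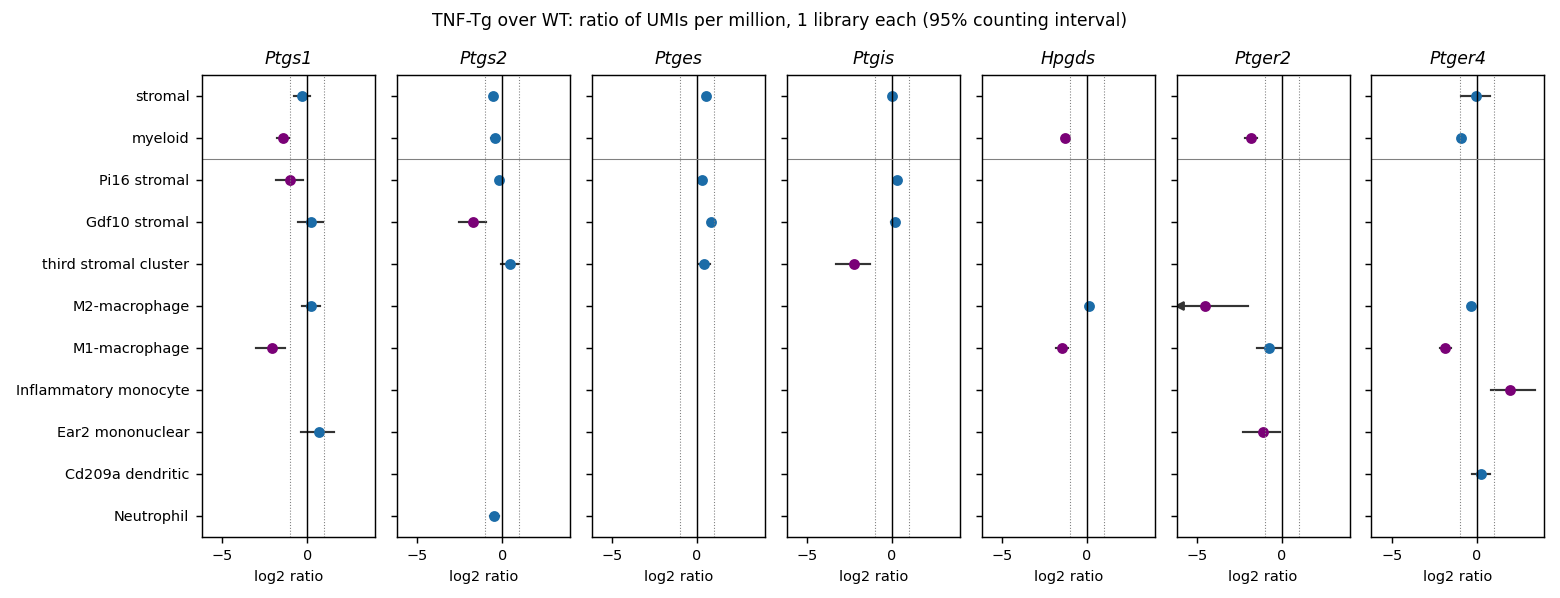
log2 ratio of CPM, TNF-Tg over WT, for 7 genes in the stromal and myeloid classes (above the grey line) and in single cell types (below it), where the 2 libraries hold at least 50 UMIs; bars are 95% counting intervals, an arrow marks a bar that runs on, dotted lines mark 2-fold and purple points lie past it. Hpgds lies at -1.30 in the myeloid class and near 0 in M2-like macrophages, and Ptges lies above 0 in every stromal row.

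Among the other pathway genes, 4 of the 25 with enough UMIs were past 2-fold in stromal cells. Hpgd, the enzyme that inactivates prostaglandin E2, was lower in TNF-Tg, 12.99 against 38.8 CPM (0.334, 0.284 to 0.392). It was lower in both main clusters, with ratios of 0.227 (0.173 to 0.294) in Pi16 and 0.184 (0.119 to 0.275) in Gdf10 stromal cells. In the third stromal cluster 0 of the 13 other pathway genes with enough UMIs, Hpgd among them, were past 2-fold, beside 9.76% of all genes. Ptgir, the prostacyclin receptor, was higher, 13.7 against 3.79 CPM (3.62, 2.86 to 4.595), with ratios of 5.32 (3.66 to 7.81) in Pi16 and 2.77 (1.77 to 4.41) in Gdf10 stromal cells. Pla2g2e was lower (0.455, 0.359 to 0.570). Ltc4s was higher (2.53, 1.68 to 3.82) at 3.87 against 1.53 CPM, while leukocyte markers in the same cells summed to 59.6 against 39.4 CPM, and their part in it was not tested. The share of all genes past 2-fold in stromal cells was 10.1%, as above. The tdT libraries, made from mice without the transgene, had 13.8 and 44.4 CPM of Hpgd and 8.21 and 27.1 CPM of Ptgir in stromal cells. The TNF-Tg value of Hpgd thus lay just below, and that of Ptgir within, the range of the other libraries. In Pi16 stromal cells Hpgd was 8.51 CPM in TNF-Tg, level with tdT1 (8.50 CPM) and below tdT2 (23.0 CPM). In Gdf10 stromal cells it was 5.68 CPM in TNF-Tg against 14.6 (tdT1) and 10.2 CPM (tdT2).

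In Gdf10 stromal cells Ptgr1, an enzyme in the breakdown of prostaglandins and leukotriene B4, was higher (2.23, 1.71 to 2.93). Pla2g2e (0.274, 0.152 to 0.467) and the exporter Abcc4 (0.472, 0.258 to 0.826) were lower there. In the myeloid class 7 of 24 were past 2-fold, 6 lower and 1 higher, beside 11.8% and 5.70% of all genes. Lower were Pla2g2d (0.132, 0.114 to 0.152), Cysltr2 (0.132, 0.0516 to 0.285), Akr1c18 (0.174, 0.0990 to 0.288), Ltc4s (0.291, 0.269 to 0.314), Pla2g15 (0.317, 0.285 to 0.352) and Tbxas1 (0.335, 0.306 to 0.366). Higher was Ltb4r1, the leukotriene B4 receptor (2.13, 2.00 to 2.27).

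In M2-like macrophages Ltc4s, the leukotriene C4 synthase, stood at 243.5 CPM in TNF-Tg against 233.2 CPM, while Pla2g2d, an anti-inflammatory secreted phospholipase, stood at 65.2 against 166.9 CPM (0.391, 0.337 to 0.452). Cysltr2 was lower there (0.154, 0.0182 to 0.580) and Ptgfrn higher (2.18, 1.17 to 3.92). In the M1-like cluster, with the marker shift given above, Ltc4s stood at 6.06 against 164.1 CPM (0.0369, 0.0246 to 0.0533), Hpgd at 14.4 against 99.5 CPM (0.145, 0.111 to 0.186) and Ltb4r1 at 117.6 against 16.1 CPM (7.31, 5.88 to 9.16). Pla2g2d, Pla2g15, Tbxas1 and Alox5 were lower there and Pla2g4a higher, with ratios of 0.0514, 0.271, 0.428, 0.487 and 2.48. In Cd209a dendritic cells, where 12.5% of all genes were past 2-fold, Ptgir (0.251, 0.143 to 0.424) and Tbxas1 (0.353, 0.196 to 0.615) were lower and Alox5 higher (2.57, 1.43 to 4.92). The 9 Cd209a dendritic markers of this cluster summed to 1339 CPM in TNF-Tg against 3228 CPM in WT, with 1 of 9 higher. Its inflammatory monocyte markers summed to 1890 against 718 CPM, with 8 of 9 higher. Without integration, the Cd209a dendritic cluster held 254 TNF-Tg and 9 WT cells. The part of these shifts in the dendritic cell ratios was not tested. In inflammatory monocytes, with the marker shift given above, Pla2g15 was lower (0.298, 0.169 to 0.546). In Ear2 mononuclear cells, with 26 cells in TNF-Tg and the marker shift given above, Prxl2b (2.12, 1.01 to 4.02) and Cbr1 (2.92, 1.38 to 5.66) were higher.

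**Figure D5:**
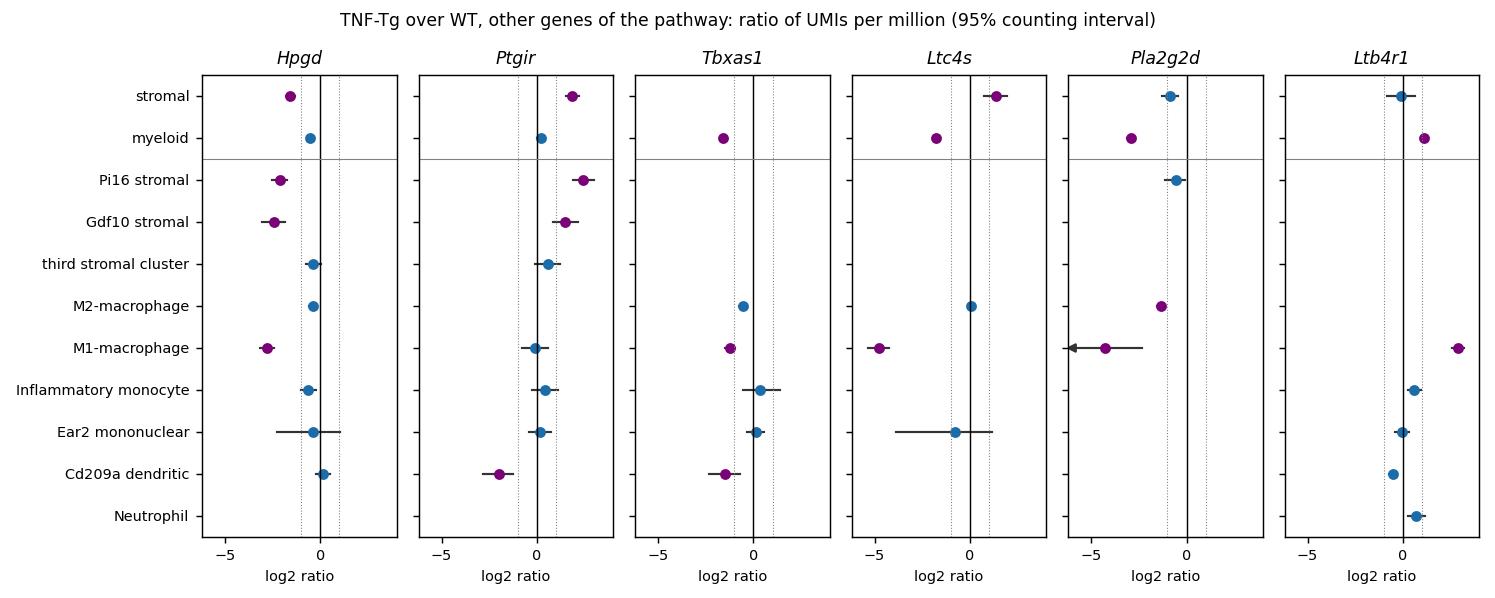
log2 ratio of CPM, TNF-Tg over WT, for 6 other pathway genes, drawn as for the prostaglandin genes. Hpgd lies below 0 and Ptgir above 0 in both main stromal clusters, and Ltc4s lies near 0 in M2-like macrophages and at -4.76 in the M1-like cluster.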

How the data were processed

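Single-cell 3′ libraries were made with the Chromium kit by the authors, who aligned reads to mm10 and deposited filtered matrices of UMI counts per gene and cell. The submitters' processing notes name Cell Ranger 3.1.0 and Seurat 4.0.3, and the matrix headers give Cell Ranger 3.1.0 for tdT1 and 6.0.1 for the other libraries. The tdT1 library was sorted through a narrower nozzle and sequenced on a NextSeq rather than a NovaSeq instrument. No replicate of WT or TNF-Tg was made.

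From these deposited counts, doublets were predicted per library (Scrublet in scanpy 1.11.5; 4, 1, 138 and 49 cells) and left out. Libraries were integrated by canonical correlation anchors (Seurat 5.3.0, 1982 features, 30 dimensions, resolution 0.5). Clusters were named where at least 3 listed markers stood among the 50 leading genes. The minimum marker levels, and the rule that set apart a cluster of mostly predicted doublets, were chosen after the clusters were seen. Rebuilt names can differ from the study's. UMIs were summed per class and library and tested with edgeR 4.0.16 (TMM, filterByExpr, library as a block, Benjamini-Hochberg). SE is the log2 difference divided by the square root of F. DESeq2 1.42.0 was an alternative. Counts were also simulated for the 12533 genes of the stromal against myeloid comparison. Of these, 85 of 100 genes changed by 2 on the log2 scale and 8 of 100 changed by 1 were called, with 0 false calls. The simulation gave every gene the same dispersion, set no differences between libraries and changed few genes. The real sums differ in all of these, so it does not give the rate of false calls in them. The study's own Wilcoxon test over cells was not used, since cells are not replicates.

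Intervals are exact (Poisson for CPM, conditional binomial for ratios) at 95% and cover counting error only. All 10 members are named, of the 36 other pathway genes at most the 4 with the largest called differences in each direction between stromal and myeloid cells and those past 2-fold between TNF-Tg and WT, beside others named after their values were seen (the remaining called genes, Ptgir and Hpgd). The members and lists were chosen with earlier results of these data known.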

Additional observations from a re-analysis of the deposited data

Results flagged for a closer look

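Members were flagged where TNF-Tg over WT ran in opposite directions in different cell types, with each counting interval clear of no change. Other pathway genes were flagged only where the ratios were also past 2-fold in both directions. These rules gave 4 genes, and pathway genes with smaller opposite ratios were not listed. How many of all genes would meet the rules was not counted. With 1 library of each genotype, the difference between cell types was not tested. The clusters named below also differed in their markers between WT and TNF-Tg, as given above for each but the third stromal cluster. Ptger4 had log2 ratios of 1.98 in inflammatory monocytes, -0.31 in M2-like macrophages and -1.85 in the M1-like cluster. Ptgis had 0.30 in Pi16 stromal cells and -2.23 in the third stromal cluster. Ptgir had 2.41 in Pi16 stromal cells and 1.47 in Gdf10 stromal cells, and -1.99 in Cd209a dendritic cells. Alox5 had 1.36 in Cd209a dendritic cells and -1.04 in the M1-like cluster.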

How the results depend on the processing

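Between stromal and myeloid cells the counts of genes and members called stayed within 1.5 times under every alternative, with 4399 to 5218 genes and 6 to 7 members called when 1 library was left out. The call of Ptgs2 was also lost with doublets kept (adjusted p = 0.0179 by edgeR), without integration (0.0110) and with cells gated by markers alone (0.0137), at log2 differences of 1.70 to 1.90. The direction of Ptger3, never called, turned to 0.14 under DESeq2, 0.11 without the replicate block and 0.48 without WT (range with 1 library left out -0.95 to 0.48). Between Pi16 and Gdf10 stromal cells 1 member was called under DESeq2, and 272 genes and 0 members without the replicate block. With 1 library left out, 834 to 1494 genes (834 without WT, 1018 without TNF-Tg) and 2 to 3 members were called. Ptgfr, not called, turned to 0.18 without tdT1 and 0.016 without TNF-Tg (range -0.52 to 0.18), and Ptges to 0.038 without TNF-Tg (range -0.33 to 0.038). No paired analysis was possible between WT and TNF-Tg because each had 1 library. In the stromal class 0 members were past 2-fold under all alternatives. In the myeloid class 5 were at a minimum of 20 UMIs, and 1 at the WT mix of cell types, where Ptgs1 turned to 0.061 on the log2 scale. Genes with few UMIs, Ptgds, Ptger3 and Ptgfr, limit what this depth can show. The cause of these changes was not tested.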
